A study of Rattus norvegicus with 16 samples.

Results

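The genes described here build and renew the sarcomere, the contractile unit of striated muscle, in the right ventricle of female rats with and without estrogen receptor alpha and with and without pressure load. The list names 31 genes by symbol: parts of the thin filament, light chains and their kinase, the M-band, the Z-disc with its scaffold proteins and desmin, and chaperones and ubiquitin ligases of sarcomere turnover. Members were kept if they had a count of 10 or more in at least 4 libraries. Of the 31, 29 were kept, out of 32754 gene entries in each library, and each of the 29 had at least 10 counts in all 16 libraries. The giant protein titin (Ttn) and leiomodin 2 (Lmod2), which lengthens thin filaments, have no level here because their counts were not analysed here, and they appear only in the count of promoter windows. Membership rests on the symbol and on that minimum alone, but the list was chosen with earlier results of these data known.

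All animals were female Sprague Dawley rats, 20 to 21 weeks old, either wild type (WT) or ERalpha -/- (KO). The KO rats carry a mutation of Esr1, the gene for estrogen receptor alpha, and the labels name no tissue or cell type to which it is limited. They had sham surgery without load (SHAM) or pulmonary artery banding for 10 weeks (PAB), in which a constriction of the pulmonary artery makes the right ventricle pump against a higher pressure. Surgery and genotype combine to 4 groups of 4 libraries (WT SHAM and KO SHAM, WT PAB and KO PAB), made from RNA of 10 mg of right ventricle and named here by group and replicate number. Whether replicates came from different rats is not in the labels, so a p-value here reflects only how far these samples spread, and that spread may be technical.

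In the sarcomere, thin filaments of actin, tropomyosin and troponin are anchored at the Z-disc by alpha-actinin, and thick filaments of myosin are held in register at the M-band by myomesins. The Z-disc also carries scaffold proteins that transmit and sense force, and desmin filaments link neighbouring Z-discs. Small heat shock proteins protect these structures under strain, and muscle ubiquitin ligases mark their proteins for degradation. A ventricle under lasting pressure load adds sarcomeres as its myocytes grow, which requires both the making and the removal of such proteins.

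Total counts per library were 22168110 to 34718633, and levels are given as CPM, the count of a gene scaled to the total of its library after adjusting that total by edgeR's TMM factor. As a share of all counts the members made up 3.18% ± 0.322 of WT SHAM and 3.51% ± 0.204 of WT PAB, and 3.36% ± 0.208 of KO SHAM and 3.56% ± 0.145 of KO PAB libraries (SD, n = 4). Esr1 was at 2.69 to 5.53 CPM in the 8 WT libraries and at 0.248 to 0.589 CPM in the 8 KO libraries, so each library matched its labelled genotype. All 10 cardiomyocyte markers were detected in every library, with a summed level of 37991 to 72013 CPM. Of 9 skeletal muscle markers, 7 were among the counted genes and 3 passed the filter on low counts. Their summed level of 681 to 1364 CPM was nearly all that of 1 gene, Ckm, at 679 to 1363 CPM. The sham libraries WT SHAM 2, WT SHAM 3 and KO SHAM 4 stood apart from the rest, with a summed score (z-scores of adipocyte and mesothelial markers) of 2.28 to 3.05 against -1.12 to 0.08 in the other 13. The summed adipocyte level alone, mostly that of Fabp4 (208 to 342 CPM), did not separate them. It was at 346, 365 and 265 CPM, against 253 to 378 CPM in the other 13. The cardiomyocyte markers of these 3 sham libraries were lower than in the other 5 sham libraries by a median log2 difference of -0.60, in 10 of 10 genes, of which 9 were below all 5. The comparisons below are given with and without these 3. In tissue RNA, fewer cells of a type and less RNA per cell cannot be told apart.

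The question of the banding comparison is how the loaded ventricle differs from the unloaded one. Averaged over both genotypes, 6 of the 29 members rose and none fell. They were the Z-disc genes Nrap, Synpo2l and Pdlim5, the chaperone Hspb7, the ligase Trim54 and the actin-severing Cfl2, with rises of 1.38-fold to 1.92-fold. Over all 13458 genes tested, 5.09% passed in this comparison, 3.24% higher and 1.85% lower. A gene passed at an adjusted p (Benjamini-Hochberg, edgeR's quasi-likelihood test) under 0.05. The median log2 fold change was 0.20 over the members, of which 23 were positive, and -0.02 over all genes tested. At an unadjusted p under 0.05 there were 11 members, all of them higher, against 22.7% of all genes. The summed level of 6 atrial myocyte markers moved with banding as well, at 15.1 to 38.1 CPM in the 8 sham libraries, 61.6 to 483 CPM in WT PAB and 350.2 to 1055 CPM in KO PAB. Of the 6, 1 passed with all 16 libraries, the atrial natriuretic peptide gene Nppa (log2 fold change 5.46, from 1.46 CPM in the lowest library to 1017 CPM in the highest), which loaded ventricles are also known to make. The highest library of the atrial light chain genes Myl7 and Myl4 was at 14.1 and 17.4 CPM and that of sarcolipin (Sln) at 2.32 CPM, and Myl7 was at 0 in 1 library and Sln in 3. Without the 3 sham libraries that stood apart Myl7 also passed, higher, where 7% of all genes passed. With the adipocyte and mesothelial score as covariate both Myl7 and Myl4 passed, higher, where 7.96% of all genes passed. The part of atrial cells in the rise of the members was not tested.

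Where these genes start is shown first, because they are the members that moved. RefSeq (assembly GRCr8, not the build the reads were mapped to) gives the start of 23 of the 31 members, among them 5 of the 6 that rose. The 250 bases before the start of these 5 are printed 5′ to 3′ on the strand of the gene, with that of Trim63, a close relative of Trim54 that did not pass the test. Capitals mark matches on either strand to TATAAA, to the MCAT letters CATTCC, to the GATA letters AGATAA, to the CArG box (bound by serum response factor) or to the MEF2 site.
Synpo2l, chr15:3684760-3685009, plus strand: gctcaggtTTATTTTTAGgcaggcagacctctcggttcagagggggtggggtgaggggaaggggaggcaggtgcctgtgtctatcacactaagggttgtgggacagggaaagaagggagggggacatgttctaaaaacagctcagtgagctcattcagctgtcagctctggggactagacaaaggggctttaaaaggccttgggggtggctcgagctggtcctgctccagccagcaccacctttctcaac
Pdlim5, chr2:233793477-233793726, minus strand: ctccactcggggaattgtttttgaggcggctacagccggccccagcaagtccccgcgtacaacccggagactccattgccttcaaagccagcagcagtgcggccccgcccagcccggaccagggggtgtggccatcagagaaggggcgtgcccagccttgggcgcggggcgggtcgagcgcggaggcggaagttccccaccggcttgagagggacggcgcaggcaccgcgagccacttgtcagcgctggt
Hspb7, chr5:159010509-159010758, plus strand: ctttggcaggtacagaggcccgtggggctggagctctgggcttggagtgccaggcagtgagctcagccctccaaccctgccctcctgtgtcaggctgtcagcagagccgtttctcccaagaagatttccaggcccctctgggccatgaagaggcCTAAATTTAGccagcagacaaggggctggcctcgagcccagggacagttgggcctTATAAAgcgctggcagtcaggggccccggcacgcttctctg
Trim54, chr6:30978476-30978725, minus strand: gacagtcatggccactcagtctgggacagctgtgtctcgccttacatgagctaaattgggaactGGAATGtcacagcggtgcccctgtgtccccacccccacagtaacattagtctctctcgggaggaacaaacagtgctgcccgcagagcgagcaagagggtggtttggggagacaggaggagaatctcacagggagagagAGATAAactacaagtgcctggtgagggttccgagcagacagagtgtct
Cfl2, chr6:78094889-78095138, minus strand: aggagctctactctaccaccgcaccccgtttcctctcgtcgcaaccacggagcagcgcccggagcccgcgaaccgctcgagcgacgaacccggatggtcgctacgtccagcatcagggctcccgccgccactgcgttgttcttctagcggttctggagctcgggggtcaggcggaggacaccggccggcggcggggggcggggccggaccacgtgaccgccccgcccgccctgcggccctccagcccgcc
Trim63, chr5:151816986-151817235, plus strand: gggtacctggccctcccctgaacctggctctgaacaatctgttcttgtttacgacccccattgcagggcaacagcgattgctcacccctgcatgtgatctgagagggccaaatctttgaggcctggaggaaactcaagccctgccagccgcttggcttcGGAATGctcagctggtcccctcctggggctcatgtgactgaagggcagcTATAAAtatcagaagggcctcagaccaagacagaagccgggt

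Of the 5 windows of rising members, the MEF2 site stood in 2, TATAAA, the MCAT letters and the GATA letters in 1 each, and the CArG box in none. Hspb7 had a MEF2 site at 96 to 87 bases before its start and TATAAA at 41 to 36 bases. Synpo2l had a MEF2 site at 242 to 233 bases. Trim54 had the MCAT letters at 186 to 181 bases and the GATA letters at 48 to 43 bases, and Cfl2 and Pdlim5 had none of the 5 motifs. Trim63 had the MCAT letters at 91 to 86 bases and TATAAA at 42 to 37 bases. Over all members, the MEF2 site stood in 5 of 24 windows (20.83%; Tnnt2 has more than 1 start), against 2.96% of 33469 RefSeq windows of this length. The MCAT letters stood in 8 of 24 (33.33%, against 12.06%), the CArG box in 3 of 24 (12.5%, against 1.5%), the GATA letters in 4 of 24 (16.67%, against 10.3%) and TATAAA in 3 of 24 (12.5%, against 12.93%). The E-box, CANNTG, stood in 21 of 24 (87.5%, against 65.54%) and in all 5 rising windows, and is not capitalised. TATAAA and the MEF2 site can share letters. A match describes the letters of this window and is no evidence of binding.

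Among Z-disc genes, Nrap had the largest rise of all members. Its protein anchors actin at the ends of myofibrils and takes part in their assembly. Nrap stood at 326, 232, 313 and 414 CPM in WT SHAM 1 to 4 and at 916, 423, 559 and 486 CPM in WT PAB 1 to 4. In KO SHAM 1 to 4 it stood at 322, 386, 453 and 284 CPM and in KO PAB 1 to 4 at 599.6, 826, 688 and 759 CPM. The highest sham library was below the lowest banded library in each genotype, and WT PAB 1 stood far above the other WT PAB libraries. Averaged over genotypes the log2 difference was 0.94 (SE 0.16, adjusted p 0.00652), a 1.92-fold rise.

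Synpo2l encodes a synaptopodin-like, actin-binding protein of the Z-disc. Its levels in WT were 46.2, 39.1, 50.8 and 81.1 CPM after sham surgery and 130.4, 78.8, 76.0 and 75.2 CPM after banding. In KO they were 42.5, 49.2, 63.0 and 54.8 CPM after sham surgery and 66.6, 120.3, 121 and 129.8 CPM after banding. Groups overlapped in WT, where WT SHAM 4 was above 3 of the banded libraries, and not in KO, where KO PAB 1 lay close to the sham libraries. Synpo2l rose by 0.90 on average (SE 0.18, adjusted p 0.0130).

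Pdlim5, an enigma-family protein with PDZ and LIM domains, binds alpha-actinin and protein kinases at the Z-disc. It was at 48.1, 51.1, 49.4 and 42.8 CPM in WT SHAM and at 71.8, 67.2, 55.3 and 80.6 CPM in WT PAB. In KO SHAM it was at 40.5, 66.9, 40.5 and 44.8 CPM, and in KO PAB at 67.7, 97.4, 70.2 and 95.05 CPM. The groups did not overlap in either genotype, although KO SHAM 2 came close to KO PAB 1. The rise in Pdlim5 was 0.65 on the log2 scale (SE 0.12, adjusted p 0.00886). Its relative Pdlim3, also an alpha-actinin binder, differed by -0.19 (adjusted p 0.351), over a range of 50.9 to 94.5 CPM.

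Hspb7 is a small heat shock protein abundant in heart that keeps actin thin filaments in order. It was at 1338 CPM in WT SHAM 1, 700.0 in WT SHAM 2, 1063 in WT SHAM 3 and 1330.0 in WT SHAM 4. WT PAB 1 to 4 had 2318, 1406, 1525 and 1395 CPM, all above the sham libraries. KO SHAM 1 to 4 had 1267, 1316, 1469.8 and 1000.0 CPM, all below KO PAB 1 to 4 with 1921, 2246, 1794 and 2052 CPM. Hspb7 rose by 0.62 (SE 0.15, adjusted p 0.0248).

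The other chaperone, alphaB-crystallin (Cryab), which binds desmin and titin under stress, did not pass the test. WT SHAM had 2492, 1495, 1896 and 2580.1 CPM and WT PAB 3297, 2336, 2529.6 and 2612 CPM. KO SHAM had 2771, 2645, 2716 and 1575 CPM against 2969.8, 2816, 2643 and 2858 CPM in KO PAB. The groups overlapped in both genotypes, and the lowest libraries were WT SHAM 2, KO SHAM 4 and WT SHAM 3. Its averaged difference was 0.28 (adjusted p 0.237), with a 95% interval of -0.01 to 0.58.

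Cfl2, the muscle cofilin that severs and renews actin filaments, was the single thin filament gene of 6 tested to rise. It was at 269, 179.9, 229 and 242 CPM in WT SHAM and at 385, 263, 276 and 299 CPM in WT PAB. KO SHAM had 285, 293, 265 and 197 CPM, and KO PAB had 314, 394, 349.8 and 429 CPM. Groups did not overlap in KO, while in WT the lowest banded library, WT PAB 2, lay just below WT SHAM 1. The rise was 0.46 (SE 0.11, adjusted p 0.0309).

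**Figure D1:**
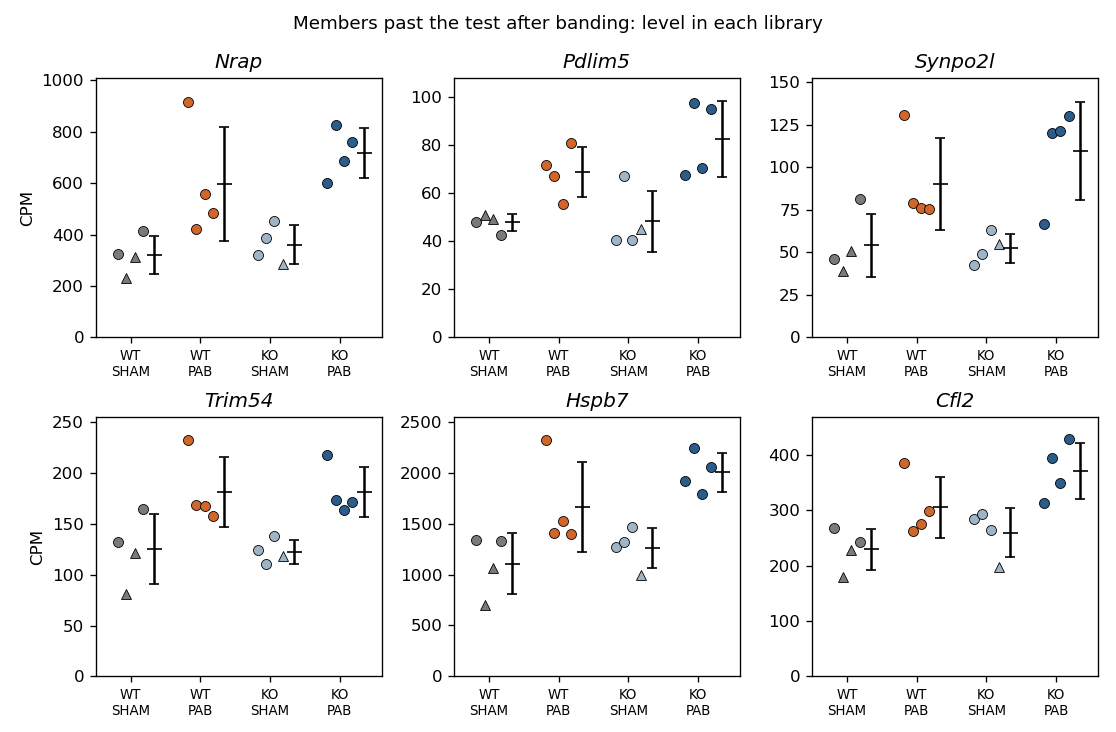
Level in CPM (linear axis from 0) of the 6 members that rose after banding, 1 point per library and 4 libraries per group, with triangles for WT SHAM 2, WT SHAM 3 and KO SHAM 4 and black bars for mean ± SD. The groups of Nrap, Hspb7 and Pdlim5 do not overlap in either genotype, and WT PAB 1 is the highest WT PAB library in 5 of the 6 panels, Pdlim5 being the exception.

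Trim54 was the ligase that rose. It encodes MuRF3, a ubiquitin ligase of the muscle RING finger family that also binds microtubules. WT SHAM 1 to 4 had 132, 81.5, 122 and 165 CPM and WT PAB 1 to 4 had 233, 169, 168 and 158 CPM. KO SHAM had 124, 110.1, 138 and 118 CPM and KO PAB had 218, 174, 164 and 172 CPM. Only WT PAB 4 and WT SHAM 4 crossed the line between sham and banded libraries. The rise was 0.55 (SE 0.13, adjusted p 0.0226).

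The related ligases Trim55 (MuRF2), which associates with titin and microtubules, and Trim63 (MuRF1), which binds titin at the M-band and marks thick filament proteins for degradation, did not pass the test. Trim55 was at 177, 101, 125 and 135 CPM in WT SHAM and 159, 146, 131 and 180.2 CPM in WT PAB, then 146, 143, 142 and 98.8 CPM in KO SHAM against 122, 161, 141 and 156 CPM in KO PAB. Trim63 was at 117, 45.5, 70.2 and 109 CPM in WT SHAM, 104, 79.2, 81.9 and 87.9 CPM in WT PAB, 74.1, 83.8, 108 and 57.0 CPM in KO SHAM and 78.8, 84.2, 71.7 and 75.7 CPM in KO PAB. For both genes sham and banded libraries overlapped in each genotype, and the widest spread of Trim63 was within WT SHAM. The averaged differences were 0.16 for Trim55 (adjusted p 0.431, 95% interval -0.09 to 0.42) and -0.00 for Trim63 (adjusted p 0.994, 95% interval -0.37 to 0.36). Without WT SHAM 2, WT SHAM 3 and KO SHAM 4, Trim63 was lower after banding, at -0.27. Its unadjusted p was then under 0.05, as for 24.8% of all genes, and it did not pass.

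Fbxo32 (atrogin-1) is the F-box ligase that, with Trim63, is used as a marker of muscle atrophy. It was at 109.6, 99.0, 130.0 and 121 CPM in WT SHAM, 107, 114, 119.8 and 107 CPM in WT PAB, 85.0, 122, 121 and 120.3 CPM in KO SHAM and 86.7, 109, 129 and 92.0 CPM in KO PAB. Groups overlapped in both genotypes, and the difference was -0.07 (adjusted p 0.713, 95% interval -0.28 to 0.14). Counts of the 3 Trim genes, whose coding sequences are related, may depend on how the authors' software divided shared reads, which was not tested.

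Neither M-band gene passed. Myom1 encodes myomesin 1, the main cross-linker of thick filaments. It was at 681, 419, 561 and 644 CPM in WT SHAM, 774, 627, 689 and 704 CPM in WT PAB, 639, 685, 662 and 488 CPM in KO SHAM and 630.4, 738, 669 and 659 CPM in KO PAB. The difference was 0.20 (adjusted p 0.258, 95% interval -0.02 to 0.42), and sham and banded libraries overlapped in both genotypes. Myom2 encodes the M-protein of the same family. It was at 3251, 2699.6, 3424 and 3251 CPM in WT SHAM and 3080.0, 3265, 3394 and 3677 CPM in WT PAB, then 3547, 3181, 3619 and 3244 CPM in KO SHAM against 3416, 3026, 2746 and 2706 CPM in KO PAB. Its averaged difference was -0.05 (adjusted p 0.739, 95% interval -0.22 to 0.12), with sham and banded libraries overlapping in both genotypes. Its highest library was 1.36 times its lowest, the smallest such ratio of the 29 members.

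**Figure D2:**
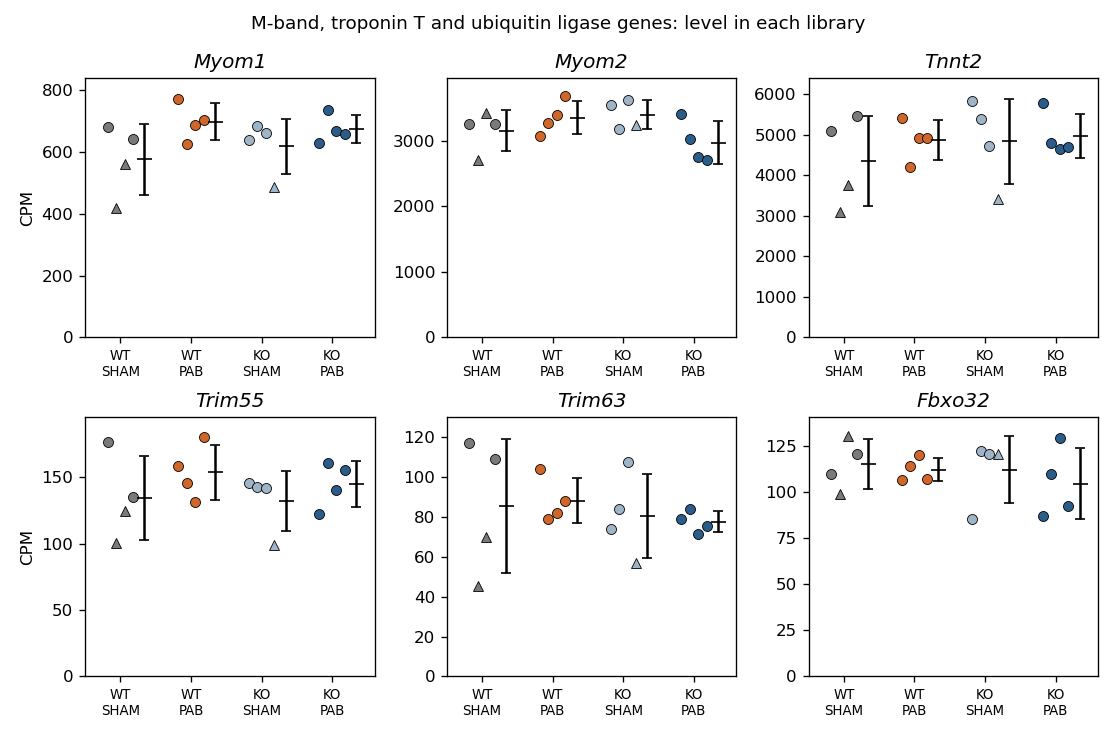
Level in CPM (linear axis from 0) of the M-band genes Myom1 and Myom2, of cardiac troponin T and of 3 ubiquitin ligase genes, 1 point per library, with triangles for WT SHAM 2, WT SHAM 3 and KO SHAM 4 and black bars for mean ± SD (n = 4). In each of the 6 panels banded and sham libraries overlap within both genotypes.

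Of the other thin filament genes, cardiac troponin T (Tnnt2), which ties troponin to tropomyosin, was at 5095, 3085, 3760.4 and 5475 CPM in WT SHAM and 5407, 4212, 4913 and 4933 CPM in WT PAB. In KO SHAM it was at 5832, 5390.0, 4727 and 3429 CPM and in KO PAB at 5792, 4793, 4640.1 and 4691 CPM. Groups overlapped, with the 3 sham libraries that stood apart at the bottom of their groups, and the difference was 0.10 (adjusted p 0.700, 95% interval -0.19 to 0.39). Tropomodulin 1 (Tmod1), which caps the pointed end of the filament, came nearest to the threshold, at 0.33 (adjusted p 0.0732) over a range of 230.4 to 456 CPM. Cardiac troponin C (Tnnc1), the calcium sensor, differed by 0.22, tropomyosin 1 (Tpm1) by 0.06 and nebulette (Nebl), which links actin to the Z-disc, by 0.00, with adjusted p of 0.285 to 0.999.

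No light chain gene passed. Myl2, the ventricular regulatory light chain, was at 92.6, 43.8, 62.8 and 83.2 CPM in WT SHAM and 121, 65.1, 84.7 and 98.7 CPM in WT PAB. In KO SHAM it was at 67.2, 84.9, 71.9 and 52.9 CPM, below all KO PAB libraries at 94.0, 96.9, 88.6 and 118 CPM. These levels are low for a gene known as one of the abundant transcripts of the ventricle, and the annotation behind the counts is not given in the sources used here, so how much of its RNA the counts hold is not known. Groups overlapped in WT, and the averaged difference was 0.45 (adjusted p 0.105, 95% interval 0.12 to 0.79). The essential light chain Myl3 differed by 0.15 (adjusted p 0.524) and Mylk3, the cardiac kinase that phosphorylates Myl2, by -0.03 (adjusted p 0.902).

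Of the 12 Z-disc genes, 9 did not pass. Actn2, the sarcomeric alpha-actinin that cross-links thin filaments at the Z-disc, was at 1594, 1014, 1394 and 1878 CPM in WT SHAM and 2092, 1594, 1858 and 1761 CPM in WT PAB. KO SHAM had 1685, 1655, 1626 and 1284 CPM and KO PAB had 1983, 1986, 1688 and 1902 CPM. Groups overlapped in WT and not in KO, where KO SHAM 1 and KO PAB 3 nearly met, and the averaged difference was 0.29 (adjusted p 0.142, 95% interval 0.05 to 0.54). Desmin (Des), the intermediate filament of muscle, was at 1337, 910.0, 1095 and 1601 CPM in WT SHAM, 1916, 1291, 1497 and 1358 CPM in WT PAB, 1646, 1309, 1375 and 986 CPM in KO SHAM and 1562, 1492, 1566 and 1560.1 CPM in KO PAB. Groups overlapped in both genotypes and the difference was 0.26 (adjusted p 0.253, 95% interval -0.02 to 0.53).

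The scaffold genes Myoz2, Smpx, Ldb3, Mypn and Nexn differed by a log2 fold change of at most 0.31. Calsarcin 1 (Myoz2), which binds calcineurin at alpha-actinin, differed by 0.31 (adjusted p 0.0839) and its groups did not overlap in WT and overlapped in KO, over a range of 516 to 980.1 CPM. Smpx, a small stretch-related muscle protein, differed by 0.30 (adjusted p 0.140). Cypher (Ldb3) differed by 0.20, myopalladin (Mypn) and nexilin (Nexn) by 0.13 each, with adjusted p of 0.297, 0.508 and 0.524. Nexn ranged from 233 to 390.4 CPM over the libraries.

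Actn1 was the member whose level varied most. It encodes a non-muscle alpha-actinin found in smooth muscle and other cells rather than in the Z-disc of cardiac sarcomeres. It stood at 7.79, 119, 34.1 and 12.9 CPM in WT SHAM, 13.8, 16.0, 10.6 and 11.1 CPM in WT PAB, 7.29, 11.3, 3.40 and 51.96 CPM in KO SHAM and 9.23, 11.4, 16.7 and 15.5 CPM in KO PAB. Its highest library was 35.1 times its lowest, against at most 3.96 for the other 28 members, and its 3 highest libraries were WT SHAM 2, KO SHAM 4 and WT SHAM 3. The averaged difference was -1.13 (SE 0.58, adjusted p 0.261, 95% interval -2.36 to 0.11), and without these 3 libraries it was 0.59 (adjusted p 0.197), so its direction rested on them. Within WT it went from -1.76 to 0.32 and within KO from -0.49 to 0.85 on leaving them out. The summed level of 8 smooth muscle markers, all detected, was 3486, 1183 and 1745 CPM in WT SHAM 2, WT SHAM 3 and KO SHAM 4 and 312 to 535 CPM in the other 13 libraries. Fibroblast markers were summed at 716 to 2506 CPM and mesothelial markers at 7.61 to 113 CPM over the libraries. The part of these cells in the level of Actn1 was not tested.

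**Figure D3:**
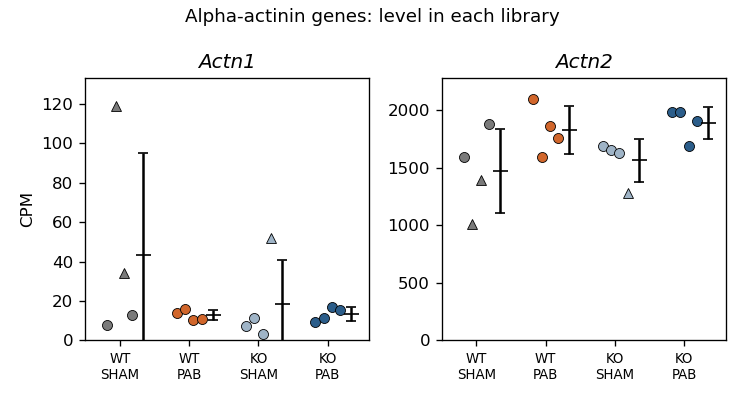
Level in CPM (linear axis from 0) of the non-muscle alpha-actinin gene Actn1 and the sarcomeric Actn2, 1 point per library, with triangles for WT SHAM 2, WT SHAM 3 and KO SHAM 4 and black bars for mean ± SD (n = 4), cut at 0. The 3 triangles are the highest Actn1 values, at 34.1 to 119 CPM, and the other 13 libraries lie between 3.40 and 16.7 CPM.

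Banding was then compared within each genotype. In WT none of the 29 members passed, against 0.00743% of all genes (1 gene), and 7 had an unadjusted p under 0.05, against 11.7% of all genes: the 6 members above and Myoz2. The log2 fold changes in WT were 0.89 for Nrap, 0.73 for Synpo2l, 0.58 for Hspb7, 0.54 for Trim54, 0.52 for Pdlim5 and 0.41 for Cfl2, with adjusted p of 0.233 to 0.380. In KO again none passed, against 0.632% of all genes (85 genes; 0.513% higher), and 8 had an unadjusted p under 0.05, against 15.6%: the 6 members above with Tmod1 and Myl2. The values in KO were 1.07 for Synpo2l, 0.99 for Nrap, 0.78 for Pdlim5, 0.67 for Hspb7, 0.57 for Trim54 and 0.52 for Cfl2, with adjusted p of 0.0523 to 0.143. Without the 3 sham libraries that stood apart, none passed in either genotype, against 0% of all genes in WT and 2.53% in KO. At an unadjusted p under 0.05 there were then 4 in WT, against 7.47% of all genes. Of these Myoz2, Nrap and Pdlim5 were higher after banding and Trim63 was lower. In KO there were 9 (Actn1, Cfl2, Hspb7, Myl2, Nrap, Pdlim5, Synpo2l, Tmod1 and Trim54), all higher, against 23.4%. The median over the members went from 0.28 to 0.07 in WT and from 0.13 to 0.03 in KO. With all 16 libraries, DESeq2 called 1 member in WT (Nrap), where it called 0.802% of all genes. In KO it called 4 (Nrap, Synpo2l, Pdlim5 and Hspb7), where it called 3.78% of all genes.

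Banded libraries lay above all sham libraries for 4 members in WT (Hspb7, Myoz2, Nrap and Pdlim5), against 2.6% of all genes. In KO this held for 10 members (Actn2, Cfl2, Hspb7, Myl2, Nrap, Pdlim5, Smpx, Synpo2l, Tmod1 and Trim54), against 5.86% of all genes. No member lay wholly below, which 2.33% of all genes did in WT and 4.32% in KO. Between genotypes no member separated the groups in either direction, where 0.505% of genes were wholly higher and 0.75% wholly lower in KO after sham surgery, and 1.69% and 1.63% after banding.

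Whether the response depended on genotype was tested by the difference of the banding effects, KO minus WT. No member passed and none had an unadjusted p under 0.05, against 0% and 1.76% of all genes, and the smallest adjusted p of a member was 0.999. That difference was 0.33 for Synpo2l (95% interval -0.43 to 1.10), 0.25 for Pdlim5 (-0.26 to 0.77), 0.10 for Nrap (-0.60 to 0.79) and -0.28 for Myom2 (-0.62 to 0.06). The widest interval was that of Actn1, from -1.19 to 3.72 around 1.27. The interval for Synpo2l reached beyond the size of its averaged banding effect. Without the 3 sham libraries none passed and none had an unadjusted p under 0.05 (2.18% of all genes), and the difference for Actn1 came to 0.53. DESeq2 also called no member.

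**Figure D4:**
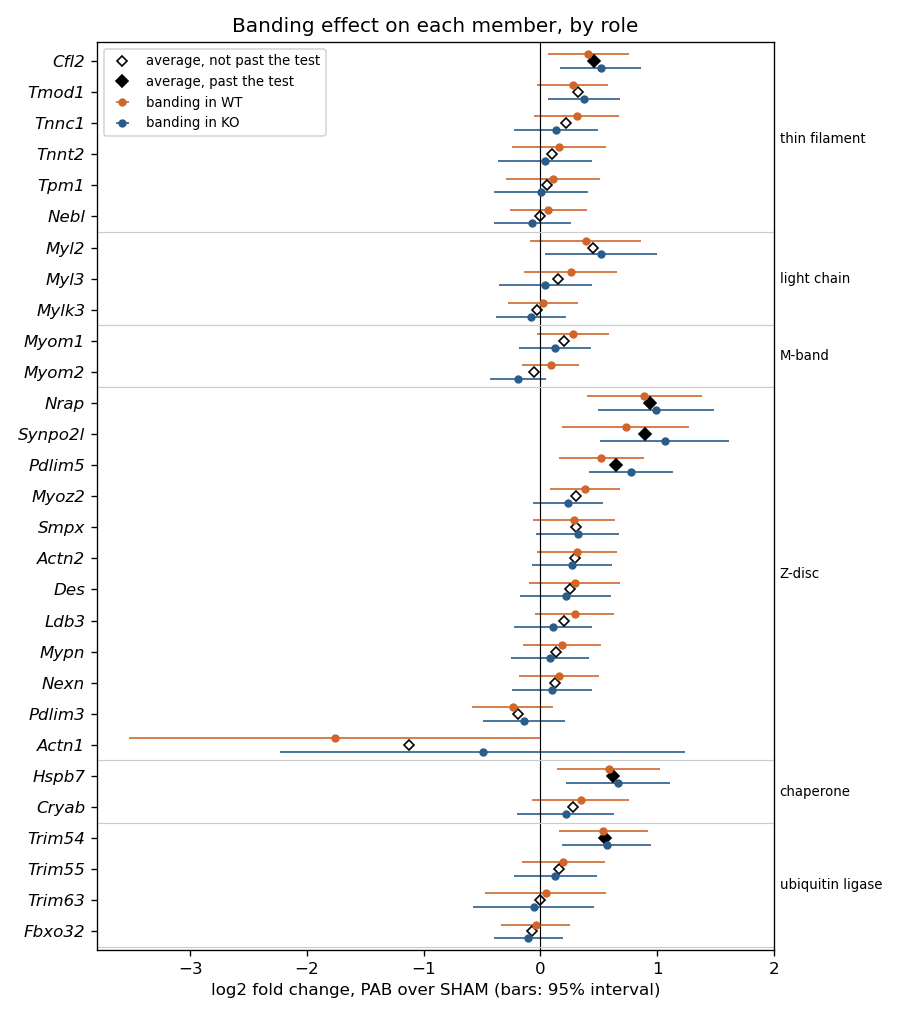
Log2 fold change of banded over sham libraries for the 29 members, ordered by role, within WT (orange, 95% interval) and KO (blue, 95% interval) and averaged over both (diamonds, filled where the test was passed). The 6 filled diamonds lie between 0.46 and 0.94, and the intervals of WT and KO overlap for each member.

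Loss of the receptor itself moved no member past the test. Between KO and WT after sham surgery none of 29 passed (0.00743% of all genes did) and none had an unadjusted p under 0.05 (2.03%). Leaving out Actn1, at -1.23 (95% interval -2.96 to 0.50), the differences were -0.09 to 0.21. Without the 3 sham libraries none passed, and Trim63 alone, lower in KO, had an unadjusted p under 0.05 (4.35% of all genes). The difference for Actn1 then came to -0.49 (adjusted p 0.997) and the others ranged from -0.35 to 0.18. After banding none passed (0.00743% of all genes) and none had an unadjusted p under 0.05 (4.52%), with differences from -0.19 for Trim63 to 0.28 for Synpo2l. This comparison holds none of the 3 sham libraries, but they enter its estimate of the spread, and the fit without them gave none past the test and 2 (Cfl2 and Tmod1) with an unadjusted p under 0.05, against 7.2% of all genes. DESeq2 also called no member in either comparison.

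In the 3 sham libraries that stood apart, 26 of 29 members (89.7%) were lower than in the other 5 sham libraries, against 49% of all genes tested, and the median log2 difference was -0.46, against 0.01 over all genes. Of the members 18 (62.1%) were below all 5 in each of the 3, against 15.3% of all genes, among them Trim63 (a mean of 57.5 against 98.3 CPM), Cryab (1655 against 2641 CPM), Tnnt2, Actn2, Nrap and Cfl2. Only Actn1 was above all 5, at 68.4 against 8.53 CPM, where 16.4% of all genes were above. On levels over the library total without the TMM factor, chosen after seeing the data, the medians were -0.15 over the members and 0.26 over all genes, with 6 members below all 5 and 2 above. The members were thus lower relative to all genes on both scales, while how many separated depended on the scale. Without the 3, 4 members passed in the averaged comparison: Nrap (0.79, adjusted p 0.0305), Pdlim5 (0.67, 0.0305), Trim54 (0.43, 0.0409) and Hspb7 (0.45, 0.0440). Synpo2l (0.80, adjusted p 0.0504) and Cfl2 (0.34, adjusted p 0.0639) then missed the threshold. The median over the members fell to 0.05, against 0.01 over all genes, of which 7% passed. Differences in Actn2, Cryab and Des came to 0.14, 0.08 and 0.08, that in Tnnt2 turned to -0.10 and that in Tpm1 to -0.13.

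**Figure D5:**
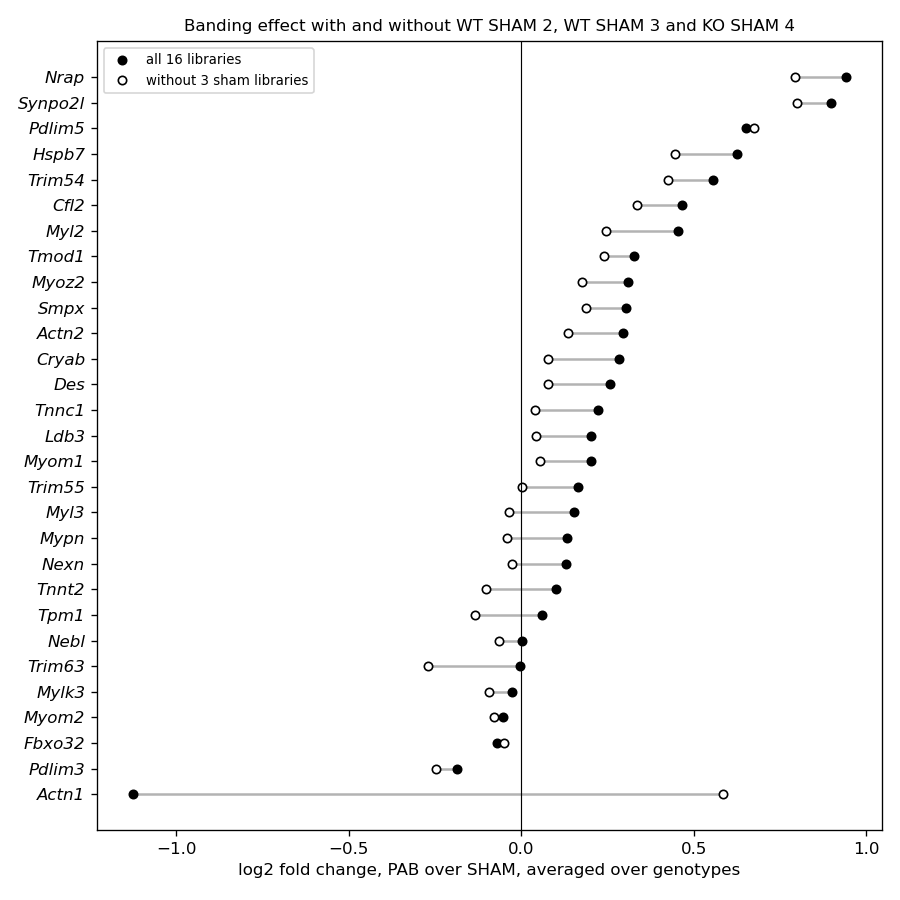
Log2 fold change of banding averaged over genotypes for each of the 29 members, from all 16 libraries (filled) and without WT SHAM 2, WT SHAM 3 and KO SHAM 4 (open). Pdlim5, Synpo2l and Nrap stay at 0.67 to 0.80 without the 3 libraries, the median of the members moves from 0.20 to 0.05, and Actn1 moves from -1.13 to 0.59.

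Leaving out 1 library changed calls among the members and over all genes. WT PAB 1 was the highest WT PAB library for 5 of the 6 members that rose. Without it 3 members (Nrap, Pdlim5 and Synpo2l) passed, where 2.65% of all genes passed, against 5.09% with all 16 libraries. With WT SHAM 3, KO PAB 2 or KO PAB 4 left out in turn, 4 members passed each time, and Hspb7 and Cfl2 missed the threshold. Of all genes 3.22%, 2.61% and 2.66% passed in these fits. Of the calls, that of Nrap held in all 25 alternative fits, Pdlim5 in 24, Synpo2l and Trim54 in 23, Hspb7 in 20 and Cfl2 in 17.

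Of 102 further genes listed for the same structures, 92 were tested, and in the averaged comparison 20 rose and 1 fell, with a median of 0.14. Over all genes 3.24% were higher and 1.85% lower. The lists were chosen with earlier results of these data known, so this is not a blind comparison. Of 20 other thin filament genes 1 rose, skeletal alpha-actin (Acta1, 2.70, adjusted p 0.00176). Of 18 genes of the thick filament and M-band 4 rose: the M-band alpha-kinase Alpk3 (1.01), the slow myosin heavy chain Myh7 (1.68), the skeletal myosin-binding protein C Mybpc2 (1.58) and the related Mybphl (1.44). Group means of Mybphl were only 0.14 to 0.52 CPM and those of Mybpc2 2.90 to 14.5 CPM, against 2883 to 11327 CPM for Myh7. Of 18 other Z-disc genes 6 rose, among them the stretch-responsive Ankrd1 (1.26) and Ankrd23 (3.51), the actin binder Xirp2 (1.60) and filamin C (Flnc, 1.09). In KO alone 7 of the 92 rose, against 0.513% of all genes. None passed in WT, in the genotype comparisons or in the difference of effects, against at most 0.00743% of all genes.

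Of 36 turnover genes tested beyond the members, 9 rose and 1 fell in the averaged comparison, against 3.24% and 1.85% of all genes. The small heat shock protein Hspb6 rose by 0.69 (adjusted p 0.0149), the co-chaperone Dnajb5 by 0.65 (0.0257) and the forkhead factor Foxo4 by 0.37 (0.0200), while Foxo1, a forkhead factor known to activate Trim63 and Fbxo32, fell by 0.38 on the log2 scale (0.0155). Without the 3 sham libraries 2 rose and 1 fell, and Foxo1 and Foxo4 no longer passed. The counts of the other lists without them were 1 higher and 1 lower of 20 thin filament genes, 4 higher of 19 thick filament and M-band genes (with Myl7 and without Mybphl) and 6 higher and 1 lower of 18 Z-disc genes. Over all genes 7% passed in that fit.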

How the data were processed

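RNA of 16 right ventricle libraries was sequenced as stranded mRNA. The deposited values are expected counts per gene symbol, given as whole numbers. Per the submitters' processing notes, STAR 2.5.3a, RSEM 1.3.0 and the build Rnor_6.0 were used. The annotation, strand setting and rounding are not given in the sources used here. Counts were tested with edgeR 4.0.16 (R 4.3.3): TMM scaling, filterByExpr (minimum count 10), a robust quasi-likelihood fit of 4 group means over all libraries, and Benjamini-Hochberg adjustment over 13458 genes. The SE is the log2 fold change over the square root of F. CPM use library totals adjusted by the TMM factors. The lowest chi-square per degree of freedom between replicates was 18.5, so none was a duplicate. The procedure was tested on simulated data in the averaged comparison. It recovered 53.7% of 67 genes changed 1.5-fold, 92.5% of 67 changed 2-fold and 100% of 66 changed 4-fold. There were 6 false calls among the unchanged of 13458 genes. The simulation drew each gene around 1 mean, changed only by banding, and held no libraries that stood apart as in these data. Its shares thus need not hold for the real libraries.

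Per-library values are given for members past the test and for a fixed set of key genes, and up to 4 genes with the smallest p per further list. The members and lists were chosen with earlier results of these data known. Alternatives were RLE, DESeq2 1.42.0, limma-voom (limma 3.58.1), other filters, fewer groups, a replicate block, left-out libraries and a marker score as covariate. Scaling to cardiomyocyte markers and levels over the library total without TMM were added after seeing the data.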

Additional observations from a re-analysis of the deposited data

Results flagged for a closer look

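Each of the 29 members was checked within each group of 4 libraries for 1 library whose gap to the nearest other exceeded, as a share of the range of the group, Dixon's critical value. Of 116 such sets, 16 held one, and chance alone marks about 1 in 20. KO SHAM 4, one of the 3 sham libraries that stood apart, was the lowest of its group for Actn2 (1284 CPM, others 1626 to 1685), Cryab (1575 CPM, others 2645 to 2771), Myl3 (3335 CPM, others 4499 to 4597), Mypn (81.7 CPM, others 115 to 119) and Trim55 (98.8 CPM, others 142 to 146). It was the highest for Actn1 (51.96 CPM, others 3.40 to 11.3). WT PAB 1 was the highest of its group for Hspb7 (2318 CPM, others 1395 to 1525), Synpo2l (130.4 CPM, others 75.2 to 78.8) and Trim54 (233 CPM, others 158 to 169), and the lowest for Mylk3 (525 CPM, others 640.3 to 663). KO SHAM 1 was the lowest for Fbxo32 (85.0 CPM, others 120.3 to 122) and the highest for Mylk3 (773 CPM, others 564 to 576). KO SHAM 2 was the highest for Pdlim5 (66.9 CPM, others 40.5 to 44.8). KO PAB 1 was the lowest for Synpo2l (66.6 CPM, others 120.3 to 129.8) and the highest for Tnnt2 (5792 CPM, others 4640.1 to 4793), and KO PAB 2 the lowest for Des (1492 CPM, others 1560.1 to 1566). No difference between genotypes in the banding effect on a member passed its test (smallest adjusted p 0.999).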

How the results depend on the processing

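In the averaged banding comparison 6 members passed. RLE size factors, limma-voom and either other filter on low counts also gave 6, where 2.96% to 5.14% of all genes passed. DESeq2 gave 8 (adding Tmod1 and Myoz2), where 9.93% of all genes passed. The fit without the 3 sham libraries gave 4, against 7% of all genes. With a covariate for the adipocyte and mesothelial markers 3 passed (Nrap, Pdlim5, Synpo2l), against 7.96%. With scaling to cardiomyocyte markers, chosen after seeing the data, 3 passed (Nrap, Hspb7, Trim54), against 0.936%. Leaving out 1 library gave 3 to 6, against 2.61% to 7.07% of all genes. In WT no member passed except 1 in DESeq2, where 0.802% of all genes passed. In KO none passed in the fit reported, where 0.632% of all genes did. DESeq2 gave 4 (3.78%), limma-voom 1 (0.817%), the fit of only the 2 groups compared 2 (1.19%) and the covariate 2 (5.38%). With 1 library left out 0 to 3 passed: 2 without WT SHAM 2 (1.21%) or KO PAB 1 (1.08%) and 3 without WT PAB 1 (2.02%). The genotype comparisons and the difference of effects gave 0 throughout. With replicate number as a block 5 members passed in the averaged comparison (Cfl2 was lost), against 3.69% of all genes, and 0 in each other one. Whether the numbers pair the libraries is not in the labels. In deviations from group means 3 of 16 libraries correlated best with their own number, and same-number correlations were -0.62 to 0.56. This cannot exclude pairing, since paired libraries need not correlate best. On levels over the library total without the TMM factor, 5 members in WT and 10 in KO had banded libraries above all sham libraries, against 4 and 10. No called value changed sign. Of all member values over the alternatives, called or not, the sign changed in 41 of 725 in the averaged comparison, 34 of 754 in WT and 31 of 754 in KO. It changed in 46 and 54 of 754 for genotype in SHAM and PAB, and in 74 of 725 for the difference of effects. Each of these changes was at a value past the test neither in the fit reported nor in the alternative. Trim63 changed sign in 12 of 25 alternatives, Nebl in 10 and Actn1 in 2. The cause of these changes was not tested.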
